A study of Mus musculus with 53 samples.

Results

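The liver makes most of the plasma proteins of blood clotting and of complement, and 34 genes that encode such proteins were followed over liver tumors and healthy livers of mice. The list holds 19 coagulation genes (clotting factors, fibrinogen chains, the contact system, plasminogen and inhibitors) and 15 complement genes (the lectin, classical and alternative pathways and the terminal components). A gene was kept where a probe annotated with its symbol had a detection score over 0.95 on at least 5 liver arrays, and the probe with the highest mean signal stood for the gene. This left 32 members, 18 of coagulation and 14 of complement, of 11567 genes kept in liver. C3 had no probe with that symbol in the annotation used here, and the probe for Fgb, the fibrinogen beta chain, was detected on 0 of 38 liver arrays.

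The arrays were Illumina mouse bead arrays, and all mice were of a mixed B6-129Sv background. The tumors arose in Mad2f/f Alb-Cre+ mice, in which the albumin promoter drives Cre in hepatocytes and removes Mad2l1, a spindle checkpoint gene. Mice were p53f/f or p53f/+, so that both or 1 of the Trp53 alleles could be lost in the same cells. Signals were present for 20 p53 f/f tumors from 15 animals and 8 p53 f/+ tumors from 5 animals, with 8 animals giving 2 tumors each, and for 10 healthy livers labelled wild type. The p53 f/f tumor numbered 12 has no signal column and entered only an alternative based on the authors' log2 values. Of 53 samples in the series, the 14 thymic ones entered no test. The pieces were whole tissue with stroma, vessels and blood cells, the healthy livers carried none of the 3 engineered alleles, and ages were not given in the labels.

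Clotting proceeds as a cascade of proteases. The contact system (F12, plasma prekallikrein from Klkb1, kininogen from Kng1) can start it by activating F11. F9 and F7 then activate F10, and F10 with its cofactor F5 converts prothrombin (F2) to thrombin, which cleaves fibrinogen to fibrin. Complement starts by lectins such as mannose-binding lectin with MASP proteases, by C1 on antibodies, or by the alternative pathway through factor B. All routes meet at C3 and end in the pore built from C5 to C9. Hepatocytes are the main source of these proteins in plasma.

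Values are log2 signals after background correction and quantile normalization (neqc), so that 1 unit is a 2-fold difference. The highest value of every liver array was 15.78, and the mean of the lowest detected values was 5.52. Differences come from limma with the animal as a random block, with p-values adjusted by the Benjamini-Hochberg method over 11567 genes and called at an adjusted p under 0.05. In whole tissue, fewer cells of a type and less RNA per cell cannot be told apart.

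The array labelled healthy liver 1 stood apart. It lay below each of healthy livers 2 to 10 in 18 of 18 coagulation and 14 of 14 complement members, and its Mup3, a major urinary protein of hepatocytes, read 4.68 against 14.32 to 15.45 on the other healthy livers. Its mean over the 11 hepatocyte markers was 10.73, the lowest of the healthy livers, and its mean over 4 bile duct markers was 9.03, the highest of them. Liver tumor 13, a p53 f/+ tumor with 28.28% of probes detected, lay below healthy livers 2 to 10 in 16 of 18 and 12 of 14 members, with a mean of 11.19 over the hepatocyte markers, 10.17 over the stellate and fibroblast markers and 9.82 over the bile duct markers. The comparisons with healthy liver are therefore given with and without healthy liver 1 for the members named in full, and liver tumor 13 is named where it decided a call. How many of all genes lay below healthy livers 2 to 10 on either array is not given here. The hepatocyte markers were high in healthy liver, with means of 10.73 to 13.15 over the list, except that the probe for Alb read 4.58 to 5.53 and was detected on none of the 10.

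With all 38 arrays, 0 of 18 coagulation members were higher and 0 were lower in tumors, where 14.7% of all genes were higher and 14.2% lower. In complement, 1 of 14 members rose, C2, and 2 fell, Mbl2 and C8b. The median difference was -0.03 over the coagulation members and -0.55 over the complement members, against -0.01 over all genes. Without healthy liver 1, 6 of 18 coagulation members (33.3%) fell, namely F11, Klkb1, F12, Proz, F13b and F9, and 6 of 14 complement members (42.9%) fell, namely Mbl2, Mbl1, Masp2, C8b, C8a and C8g. In that fit 19% of all genes were lower and 19.6% higher, and 0 members were called higher. The medians became -0.37 for coagulation and -0.81 for complement, with 0.00 over all genes. With liver tumor 13 left out as well, the calls were again 6 lower in each list, with Plg in place of F9, and C2 and Cfi were called higher. With both arrays left out, 2343 of 11567 genes were higher and 2297 lower.

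**Figure D1:**
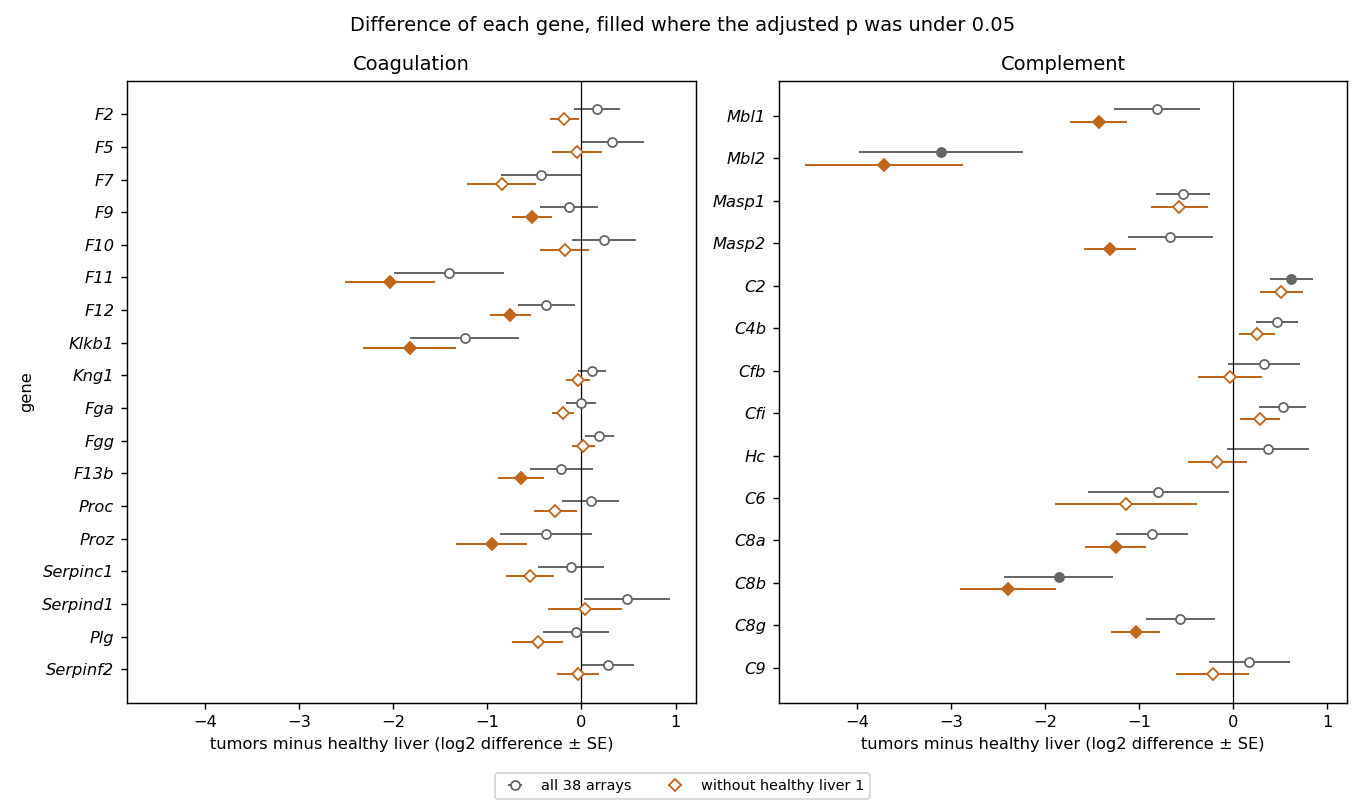
Difference of each of the 32 members between 28 tumors and healthy liver, in log2 units with its standard error, for all 38 arrays (circles) and without healthy liver 1 (diamonds), filled where the limma adjusted p was under 0.05. F11, F12, Klkb1, Mbl1, Mbl2, Masp2 and the C8 chains lie to the left, from -0.76 for F12 to -3.72 for Mbl2 without healthy liver 1. Masp1 lies at -0.57 and Kng1 at -0.03. C6 (-1.14), Proz (-0.95) and F7 (-0.85) also lie left of F12, while C2 (0.51) and C4b (0.25) lie to the right.

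The largest decreases in the clotting cascade were those of F11 and Klkb1, the protease zymogens that the contact system links. F11 read 11.36 to 12.46 on healthy livers 2 to 10, with a median of 11.83, and 5.45 on healthy liver 1. The p53 f/f tumors spanned 5.51 to 11.63 with a median of 9.68, and the p53 f/+ tumors spanned 8.21 to 13.04 with a median of 10.54. Thus 25 of 28 tumors lay below all of healthy livers 2 to 10, and a single one, the p53 f/+ tumor 14, lay above them. The difference was -1.40 ± 0.58 (SE; limma adjusted p = 0.066) with all arrays, and -2.03 ± 0.48 (limma adjusted p = 0.00093) without healthy liver 1. F11 also had the widest range of the coagulation members over the tumors, 7.53 log2 units, with tumors 24 and 11 at its lower end (5.51 and 6.91). Another well-detected F11 probe gave a difference of group means of -1.38, next to -1.37 for the probe used.

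Klkb1 is the immediate neighbour of F11 on chromosome 8 and encodes its close relative, prekallikrein. It read 11.31 to 12.32 on healthy livers 2 to 10 and 5.97 on healthy liver 1. The p53 f/f tumors read 6.76 to 11.69 (median 10.31) and the p53 f/+ tumors 5.16 to 11.52 (median 11.02). All 28 tumors were below the healthy median, and 24 of them below each of healthy livers 2 to 10. Tumors 7 and 11 (7.13 and 6.76) and tumor 13 (5.16) were the lowest. The difference was -1.24 ± 0.58 (limma adjusted p = 0.10) with all arrays and -1.83 ± 0.49 (limma adjusted p = 0.0034) without healthy liver 1.

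The other contact members moved less. F12, which activates prekallikrein on surfaces, was tightly set on healthy livers 2 to 10 (12.57 to 12.94), and 23 tumors lay below all of them. Its difference was -0.37 ± 0.30 (limma adjusted p = 0.37), and -0.76 ± 0.22 (limma adjusted p = 0.0056) without healthy liver 1. Kng1, the high molecular weight kininogen, lay within 1 unit of the array maximum on 9 of 10 healthy livers and 27 of 28 tumors. At 15.42 to 15.60 on healthy livers 2 to 10 and a tumor median of 15.57, this probe had little room to rise, and its difference was 0.11 ± 0.15 (limma adjusted p = 0.60), or -0.03 ± 0.13 (limma adjusted p = 0.86) without healthy liver 1. Another Kng1 probe, detected on all 38 arrays, had means of 13.6 in healthy liver and 13.9 in tumors. Its difference of group means was 0.31, with healthy liver 1 included. Kng1 and Kng2 are near-identical copies, and how their probes split the transcripts is uncertain.

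**Figure D2:**
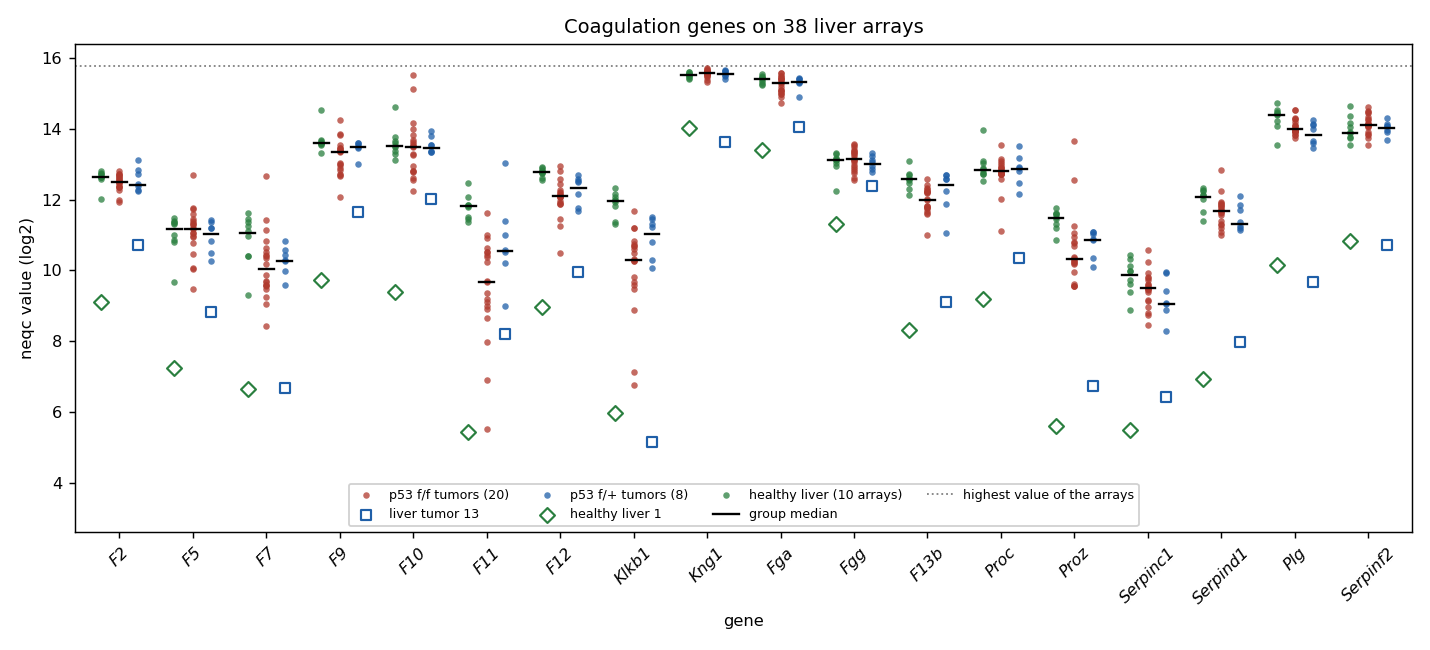
Values (neqc, log2) of the 18 coagulation members on 38 arrays: healthy livers in green, p53 f/f tumors in red and p53 f/+ tumors in blue, with bars at the group medians over all arrays. Healthy liver 1 (diamond) lies below the other healthy livers throughout, in Serpind1 by so little that it hides healthy liver 5 (both 6.93), while Fga and Kng1 crowd under the dotted line at 15.78, the highest value of the arrays.

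Of F2, F10, F5, F9 and F7, F9 alone was called, and only without healthy liver 1. Prothrombin, F2, read 12.03 to 12.82 on healthy livers 2 to 10 against a tumor median of 12.50, with a difference of 0.17 ± 0.25 (limma adjusted p = 0.65). The sign turned without healthy liver 1 (-0.18 ± 0.15, limma adjusted p = 0.36). F10 and F5 had tumor medians of 13.50 and 11.18 beside medians of 13.53 and 11.32 on healthy livers 2 to 10. F10 came within 1 unit of the array maximum in 2 tumors, numbered 23 and 24 (15.54 and 15.12). F9, encoded on the X chromosome, was lower without healthy liver 1 by a small step (-0.53 ± 0.21, limma adjusted p = 0.048). F7, the protease that tissue factor activates, was below the healthy median in 25 of 28 tumors, but missed the threshold in both fits (-0.43 ± 0.43, limma adjusted p = 0.47, and -0.85 ± 0.37, limma adjusted p = 0.064).

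F7, F10 and Proz lie next to each other on chromosome 8. Proz encodes protein Z, a cofactor in the inhibition of F10. It read 10.86 to 11.75 on healthy livers 2 to 10 and 5.60 on healthy liver 1. Its tumor range was 6.93 units, and 18 tumors lay below all of healthy livers 2 to 10. At the other end, the p53 f/f tumors 23 and 24 read 13.66 and 12.54, above every healthy liver, and these were the 2 tumors in which F10 was highest. F7 was highest among the tumors in the same pair, at 12.68 in tumor 23 and 11.44 in tumor 24, while tumor 22, from the same animal as tumor 23, read 9.88 in F7, 13.25 in F10 and 10.24 in Proz. This shared pattern of the 3 neighbours was noticed after the values were seen and was not tested. Xist, the X-inactivation transcript of female cells, was detected in tumor 22 (8.51) and not in tumor 23 (4.58), although both carry the same animal number. The difference of Proz was -0.38 ± 0.49 (limma adjusted p = 0.60), or -0.95 ± 0.38 (limma adjusted p = 0.042) without healthy liver 1.

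Fibrinogen was unlike the contact proteases. Fga, the alpha chain, was within 1 unit of the array maximum on 9 healthy livers and 26 tumors, with medians of 15.43 on healthy livers 2 to 10 and 15.33 in tumors. Fgg, the gamma chain, has its gene beside Fga on chromosome 3 and read well below that maximum (tumors 12.38 to 13.58). Its difference was 0.19 ± 0.16 (limma adjusted p = 0.37), and 0.02 ± 0.12 (limma adjusted p = 0.91) without healthy liver 1. F13b, the carrier subunit of the factor that crosslinks fibrin, fell by 0.64 without healthy liver 1 (SE 0.24, limma adjusted p = 0.032) with 14 tumors below all of healthy livers 2 to 10. With all arrays its difference was -0.22 ± 0.34 (limma adjusted p = 0.66). Another F13b probe, detected on all 38 arrays, gave a difference of group means of 0.08, beside -0.21 for the probe used.

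No inhibitor of clotting or fibrinolysis member was called over all tumors in either fit. Antithrombin (Serpinc1), protein C (Proc), heparin cofactor II (Serpind1) and antiplasmin (Serpinf2) had differences from -0.11 to 0.48 with all arrays and from -0.54 to 0.03 without healthy liver 1. Serpind1 was the member in which healthy liver 5 stood as low as healthy liver 1, both at 6.93 where the median of healthy livers 2 to 10 was 12.13. Plasminogen (Plg) was below the healthy median in 26 of 28 tumors, by a small amount (tumor median 14.00, median of healthy livers 2 to 10 14.43). Healthy liver 5 was the lowest of healthy livers 2 to 10 in 11 of 18 coagulation members and the highest of them in 10 of 14 complement members, with a mean of 11.84 over the hepatocyte markers.

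The largest change of any member was in Mbl2, 1 of the mouse mannose-binding lectins that start the lectin pathway. Mbl2 read 9.15 to 12.49 on healthy livers 2 to 10, with a median of 11.99, and 5.50 on healthy liver 1. The p53 f/f tumors read 4.60 to 10.87 with a median of 7.23, and 8 of the 20 were not detected. Of the p53 f/+ tumors, 6 read 10.16 to 12.28, within the range of healthy livers 2 to 10, and tumors 13 and 28 read 4.85 and 4.68 and were not detected. The tumor values thus ran from the array background to the level of healthy liver. The difference was -3.11 ± 0.88 (limma adjusted p = 0.0070) with all arrays and -3.72 ± 0.84 (limma adjusted p = 0.00060) without healthy liver 1. It was the widest range of any member over the tumors, 7.69 units.

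Mbl1, the other mannose-binding lectin, and Masp2, the protease that cleaves C4 and C2 on its behalf, fell more evenly. Mbl1 read 12.36 to 13.20 on healthy livers 2 to 10 and 8.43 to 12.49 in tumors, and 26 of 28 tumors lay below all of healthy livers 2 to 10. The difference was -0.81 ± 0.46 (limma adjusted p = 0.18), and -1.43 ± 0.31 (limma adjusted p = 0.00032) without healthy liver 1. Masp2 read 12.17 to 13.62 on healthy livers 2 to 10 and 8.16 to 12.37 in tumors, again with 26 tumors below them. Its difference was -0.67 ± 0.45 (limma adjusted p = 0.28), and -1.31 ± 0.28 (limma adjusted p = 0.00030) without healthy liver 1. Both genes were below the healthy median in 28 of 28 tumors. Masp1, which activates Masp2, had 13 tumors below all healthy livers, and its medians were 11.30 in p53 f/f and 12.10 in p53 f/+ tumors beside 11.84 on healthy livers 2 to 10.

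**Figure D3:**
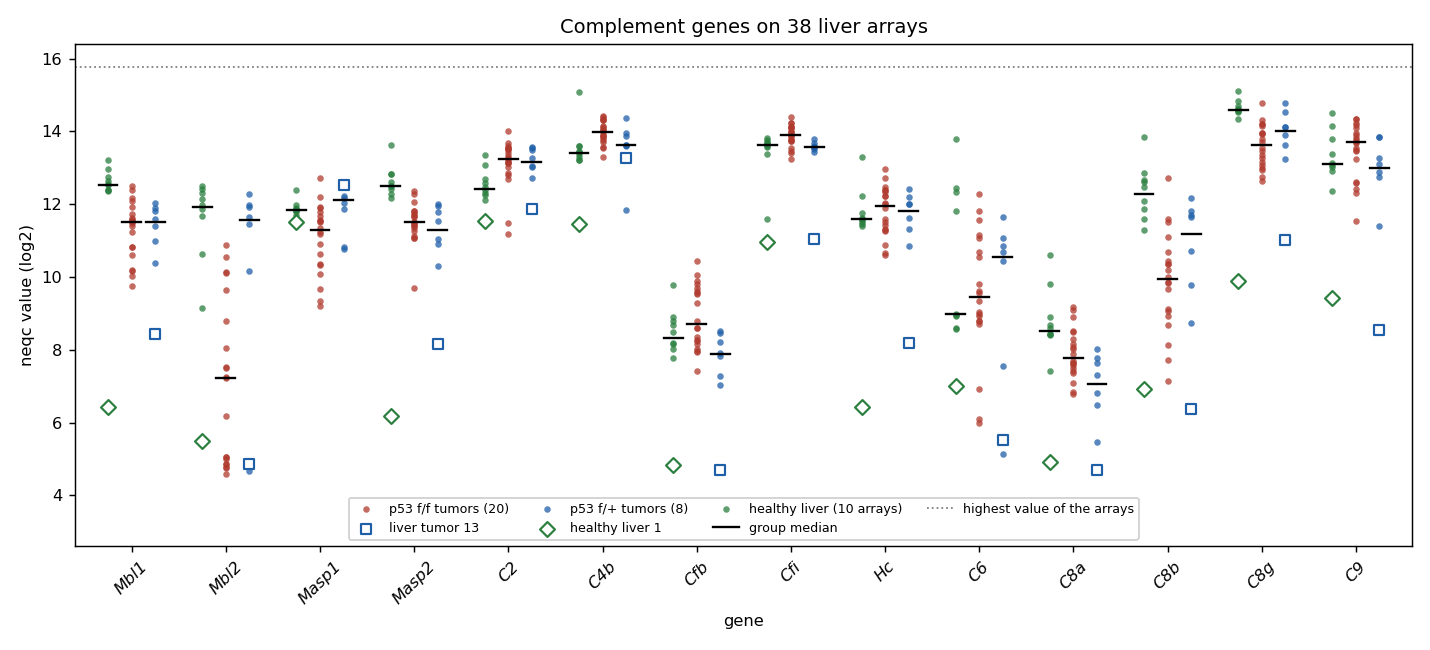
Values (neqc, log2) of the 14 complement members on 38 arrays, in the same colours, with bars at the group medians over all arrays. Mbl2 in the p53 f/f tumors runs from 4.60 to 10.87, and C6 in the 9 healthy livers other than healthy liver 1 forms 2 separate sets.

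Among the members that act after the lectins, C2 was the 1 called higher. C2 is cleaved to form the C3 convertase of the classical and lectin pathways. It read 12.12 to 13.34 on healthy livers 2 to 10 and 11.17 to 14.02 in tumors, and 11 tumors lay above all 10 healthy livers. The difference was 0.62 ± 0.23 (limma adjusted p = 0.041), and 0.51 ± 0.23 (limma adjusted p = 0.077) without healthy liver 1, so that the call was not kept without that array. C4b, the other part of the convertase, was above the healthy median in 25 of 28 tumors (0.47 ± 0.22, limma adjusted p = 0.11), and the difference was 0.25 ± 0.20 (limma adjusted p = 0.31) without healthy liver 1. C4b and C4a are near-identical copies whose transcripts the probes may not tell apart. Cfb, the factor B of the alternative pathway, lies next to C2 on chromosome 17, and its difference was 0.33 ± 0.38 (limma adjusted p = 0.55), with the sign turned without healthy liver 1 (-0.04 ± 0.34, limma adjusted p = 0.95). Cfi, the protease that inactivates C3b and C4b, had 12 tumors above all healthy livers and a difference of 0.52 ± 0.25 (limma adjusted p = 0.11), or 0.28 ± 0.21 (limma adjusted p = 0.31) without healthy liver 1.

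The terminal components separated by gene. C8b, the beta chain of C8, read 11.30 to 13.84 on healthy livers 2 to 10 and 6.92 on healthy liver 1. The p53 f/f tumors read 7.15 to 12.72 (median 9.93) and the p53 f/+ tumors 6.36 to 12.18 (median 11.18), and 21 tumors lay below all of healthy livers 2 to 10. The difference was -1.86 ± 0.58 (limma adjusted p = 0.014), and -2.40 ± 0.51 (limma adjusted p = 0.00033) without healthy liver 1. C8a, the alpha chain, is encoded next to C8b on chromosome 4. It was lower by -0.87 ± 0.38 (limma adjusted p = 0.086), and by -1.25 ± 0.33 (limma adjusted p = 0.0025) without healthy liver 1. C8g, the gamma chain from chromosome 2, was -0.56 ± 0.37 (limma adjusted p = 0.26), and -1.04 ± 0.26 (limma adjusted p = 0.0017) without healthy liver 1, where 25 tumors lay below all the healthy livers left. C8g was within 1 unit of the array maximum on 2 healthy livers and 2 tumors, and C4b on 1 healthy liver.

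C5, encoded by Hc, and C9 were not called with all arrays or without healthy liver 1, with tumor medians of 11.95 and 13.51 next to 11.60 and 13.12 on healthy livers 2 to 10. C6 was the member most divided within healthy liver. It read 11.80 to 13.79 on healthy livers 2 to 5, where Xist, the X-inactivation transcript of female cells, was not detected, and 8.56 to 8.98 on healthy livers 6 to 10, where it was. The gap between the 2 sets was 2.81 units, against at most 0.16 for any other member. Healthy livers 4 to 9 share a chip, so the separation was also present within it. The 20 tumors without Xist and the 8 with it were not separated in C6, with ranges of 5.15 to 12.28 and 6.10 to 11.55. The tumor range was 7.14 units and the difference -0.80 ± 0.75 (limma adjusted p = 0.45), or -1.14 ± 0.75 (limma adjusted p = 0.24) without healthy liver 1. With Xist detection as a covariate and healthy liver 1 left out, 3 coagulation members (F11, F12, Klkb1) and 6 complement members (Mbl2, Mbl1, Masp2, C8a, C8b, C8g) were called lower. Of 11567 genes, 2081 were lower in that fit.

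**Figure D4:**
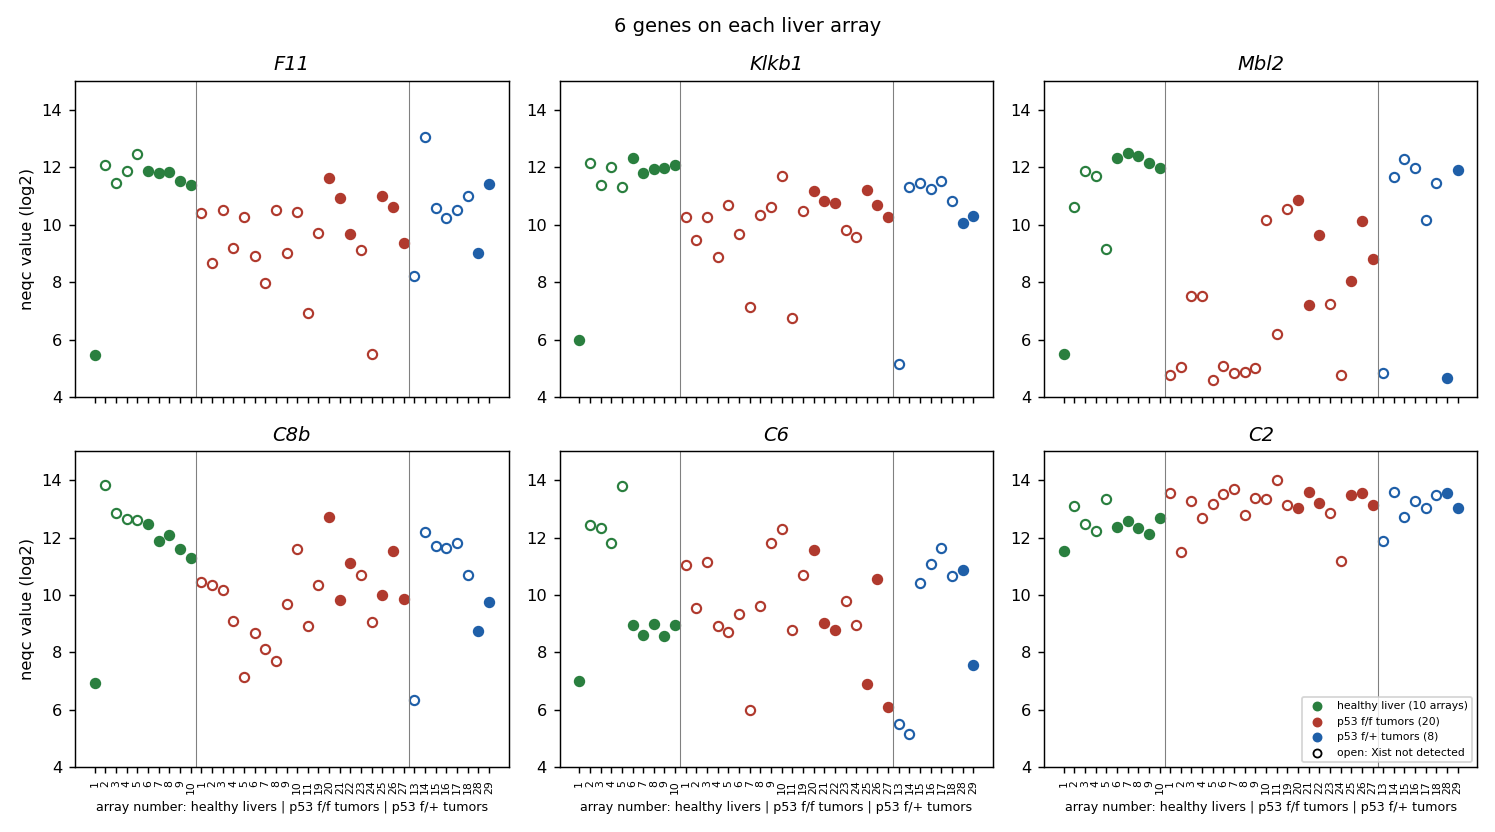
Values (neqc, log2) of F11, Klkb1, Mbl2, C8b, C6 and C2 on each of the 38 arrays, grouped as healthy livers, p53 f/f tumors and p53 f/+ tumors and numbered as labelled; open circles mark arrays on which Xist was not detected. Healthy liver 1 lies below the other healthy livers in each panel, C6 splits the other healthy livers at 2.81 units, and Mbl2 covers 7.69 units over the tumors.

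The genotypes were then taken apart. Against healthy liver, the p53 f/f tumors had 6 members called: C2 (0.63) and Cfi (0.71) higher, and F11 (-1.68), C8b (-1.98), Masp1 (-0.78) and Mbl2 (-3.86) lower, with limma adjusted p from 0.0017 to 0.048. Over all genes 15% were higher and 14.1% lower in that comparison. Without healthy liver 1 there were 10 called, all lower, where 19.2% of all genes were higher and 18.6% lower: F11, F12 and Klkb1 in coagulation, and Mbl2, Mbl1, Masp1, Masp2, C8a, C8b and C8g in complement. The p53 f/+ tumors had 1 member called, C8a, at -1.70 (limma adjusted p = 0.021), with 7.65% of all genes higher and 5.04% lower, and that call was lost without liver tumor 13. Without healthy liver 1 there were 9, all lower (F12, Plg, Serpinc1, Klkb1, C8a, C8b, C8g, Masp2 and Mbl1), with 13.4% of all genes higher and 11.6% lower. Leaving out liver tumor 13 too left 4 of them, Plg, C8a, Masp2 and Mbl1, with 1284 of 11567 genes higher and 1006 lower.

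Tested directly, 0 of 32 members differed between p53 f/f and p53 f/+ tumors, where 0.475% of all genes were called. The largest of these differences was that of Mbl2, at -2.64 ± 1.04 (limma adjusted p = 0.21). Without healthy liver 1 Cfb was called, 1.46 higher in p53 f/f tumors (limma adjusted p = 0.036; 2.07% of all genes were called), and this rested on liver tumor 13, since no member was called with both arrays left out. On the 2 chips that held both genotypes, Mbl2 was lower in the p53 f/f tumors by -1.43 and -1.66, with liver tumor 13 among the p53 f/+ tumors of the former.

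Only a single chip held both tumors and healthy livers with signals. On it, the 2 p53 f/+ tumors of a single animal, numbered 28 and 29, were compared with healthy livers 2 and 3. C8b read 8.75 and 9.77 in the tumors and 13.84 and 12.85 in the livers, a mean difference of -4.09. F11, Klkb1, Mbl1 and Masp2 were lower by means of -1.56, -1.59, -1.92 and -1.48. With healthy liver 1, which lies on the same chip, in the mean of the livers, the signs of all 4 turned, to 0.55 for F11, 0.34 for Klkb1, 0.14 for Mbl1 and 0.73 for Masp2. With chip as the random block in place of animal, Mbl2 and C8b were called lower and no member was called higher. Of 11567 genes, 1488 were higher and 1401 lower in that fit.

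Tumors of the same animal could lie far apart in these genes. In the 8 animals with 2 tumors, the median absolute difference over the 32 members was 0.22 to 0.75, and the largest in a pair was 1.54 to 7.24. Mbl2 read 4.68 in tumor 28 and 11.91 in tumor 29 of the same p53 f/+ animal, 7.24 units apart, or at least 6.42 given that tumor 28 was not detected. In another p53 f/+ animal C6 read 5.15 in tumor 14 and 10.43 in tumor 15, 5.28 apart, or at least 5.02 given that tumor 14 was not detected. Mbl2 was 3.65 units apart in tumors 20 and 21, and Proz 3.42 apart in tumors 22 and 23, which differed in Xist detection. The number of members over 1 unit apart in a pair was 4 to 12. Such distances over all genes, and between tumors of different animals, are not given here. Whether these pairs lie further apart in these genes than in others was not tested.

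The promoters of F11, Mbl2 and C8b are shown because these genes had the largest decreases of their groups. They are 250 bases before and 50 after the annotated start, from RefSeq on GRCm38.p6, with the motif matches below in capitals.
F11, chr8:45261982-45262281, minus strand: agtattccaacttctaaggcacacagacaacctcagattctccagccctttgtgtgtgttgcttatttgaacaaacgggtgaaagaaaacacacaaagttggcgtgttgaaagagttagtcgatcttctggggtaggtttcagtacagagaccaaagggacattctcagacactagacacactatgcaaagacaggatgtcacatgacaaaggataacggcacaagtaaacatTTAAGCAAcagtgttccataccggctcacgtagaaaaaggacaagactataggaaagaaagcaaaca
Mbl2, chr19:30232678-30232977, plus strand: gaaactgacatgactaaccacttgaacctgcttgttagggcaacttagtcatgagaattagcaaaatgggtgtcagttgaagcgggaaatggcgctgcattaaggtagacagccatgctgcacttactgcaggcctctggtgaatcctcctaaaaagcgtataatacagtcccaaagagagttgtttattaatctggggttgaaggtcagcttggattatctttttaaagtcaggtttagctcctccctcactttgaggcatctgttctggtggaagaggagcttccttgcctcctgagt
C8b, chr4:104766067-104766366, plus strand: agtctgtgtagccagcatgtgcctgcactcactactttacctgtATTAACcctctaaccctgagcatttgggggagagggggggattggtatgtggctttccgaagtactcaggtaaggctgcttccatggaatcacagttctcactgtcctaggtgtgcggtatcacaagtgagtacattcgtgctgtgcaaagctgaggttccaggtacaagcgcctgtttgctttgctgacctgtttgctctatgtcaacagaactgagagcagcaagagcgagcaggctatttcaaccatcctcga
Both strands were searched for 5 motifs of factors active in hepatocytes or at core promoters. A member counted where any of its promoters matched, while the share of all was taken promoter by promoter over all genes, expressed in liver or not. A C/EBP site, TTGCNNAA, was found in the promoters of 6 of the 24 members with a promoter in the table (F9, F11, Fga, Serpinc1, Klkb1 and C9), or 25%, and in 10.8% of all 32851 promoters of that length. An HNF1 core, GTTAAT, was found in 7 (F2, F13b, Fga, Proz, C8a, C8b and Hc), or 29.2%, and in 7.1% of all promoters. A STAT site, TTCNNNGAA, was in 16.7% of the members' promoters and 8.3% of all, and TATAAA in 8.33% and 13.6%. The HNF4 site CAAAGTCCA was in 0 of 24 and in 0.475% of all promoters. The F11 and C8b windows each hold 1 match, with no overlap, and the Mbl2 window holds none of these letters. A match of letters is a description and not a site of binding.

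Of 72 other genes of both pathways listed, 46 were kept, and 10 rose and 4 fell in tumors with all arrays, where 14.7% of all genes were higher and 14.2% lower. Without healthy liver 1, 12 were higher and 6 lower, beside 19.6% and 19% of all genes. Of the genes named below, Kng2 alone lost its call without healthy liver 1. In fibrinolysis, Plat, the tissue plasminogen activator, rose by 3.14 ± 0.67 (limma adjusted p = 0.00056), from a healthy median of 5.27 to a tumor median of 8.95, but healthy liver 1 read 12.90, above all tumors, and was the 1 healthy liver on which Plat was detected. Without it Plat was at least 11.1-fold higher in tumors (limma adjusted p = 5.2e-07), taking the lowest detected value of each healthy array, or the probe's own value where higher, as its level. Plaur, the urokinase receptor, rose by 1.88 ± 0.35, Plau, urokinase, by 1.21 ± 0.33, and Anxa2, a cell surface receptor for plasminogen and its activator, by 2.19 ± 0.40 (limma adjusted p from 9.2e-05 to 0.0054). Plaur was likewise detected on healthy liver 1 alone among the healthy livers, at 8.43, and was at least 2.75-fold higher in tumors without it. Plau was detected on 4 of 10 healthy livers. Pros1, the protein S cofactor of protein C, rose by 1.19 ± 0.30 (limma adjusted p = 0.0025), with 24 of 28 tumors above all healthy livers. Kng2, the near copy of Kng1, rose by 1.02 ± 0.37 (limma adjusted p = 0.034) with all arrays. Its call was lost without healthy liver 1 (0.80 ± 0.36, limma adjusted p = 0.076) and without healthy liver 5 (0.55, limma adjusted p = 0.12).

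Lower were Hgfac, the activator of hepatocyte growth factor, at -1.03 ± 0.32 (limma adjusted p = 0.014), the tissue factor pathway inhibitor Tfpi at -1.0 ± 0.38 (limma adjusted p = 0.046) and F8, the cofactor of F9 made by endothelial cells, at -0.90 ± 0.32 (limma adjusted p = 0.031). The calls of Tfpi and F8 changed in 22 and 6 of the 38 fits that left out 1 array. Among complement genes the C1q chains rose together: C1qa by 0.85 ± 0.28, C1qb by 1.08 ± 0.30 and C1qc by 1.04 ± 0.37 (limma adjusted p from 0.0073 to 0.031). Without healthy liver 5, C1qc was 0.62 (limma adjusted p = 0.11) and C1qa 0.68 (limma adjusted p = 0.064), and over the 38 fits that left out 1 array their calls changed in 4 and 3. C1q is made mainly by macrophages, and of 11 macrophage markers 2 were higher (Cd14, Lyz2) and 2 lower (Cd163, Timd4), with means over the list of 6.34 to 8.18 in healthy liver and 6.41 to 8.68 in tumors. Without healthy liver 1, 3 macrophage markers were higher and 3 lower, beside 19.6% and 19% of all genes. The part of these markers in the C1q result was not tested. C4a rose by 0.67 ± 0.21 (limma adjusted p = 0.014), and Fcna, a ficolin of the lectin pathway that macrophages make in mouse, fell by 1.53 (SE 0.55, limma adjusted p = 0.032).

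Markers of other cells were also compared, where 14.7% of all genes were higher and 14.2% lower in tumors. Of the 10 neutrophil markers 5 were higher in tumors, of the 12 endothelial markers 4 were higher and 1 lower, and of the 12 stellate and fibroblast markers 3 were higher and 1 lower. Of the 4 bile duct markers 1 was higher, and 0 of 5 T and NK cell markers and 0 of 4 B cell markers were called. Of the 11 hepatocyte markers 0 were called with all arrays. Without healthy liver 1, 0 were higher and 2 lower, beside 19.6% and 19% of all genes. In that fit 5 neutrophil markers were higher, 5 endothelial markers higher and 3 lower, and 3 stellate and fibroblast markers higher and 2 lower. The bile duct list had 1 higher, the T and NK cell list 1 higher and the B cell list 0 called. Means over the hepatocyte markers were 10.73 to 13.15 in healthy liver and 11.19 to 13.38 in tumors, so that the tumors other than liver tumor 13 stayed at 12.54 or above. The part of these cells in the members' differences was not tested.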

How the data were processed

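RNA from whole tissue pieces was hybridised to Illumina mouse bead arrays. The deposited table gives, for each array and 45281 probes, an average signal intensity with background subtracted and a detection score (1 minus the detection p-value), and the authors' log2 values, which share their quantiles within tissue, are a separate deposited table. The submitters' processing notes name limma. Versions are not given in the sources used here. From the signal intensities of 38 liver arrays, values were made with neqc (limma 3.58.1, R 4.3.3, offset 16, background from the detection scores). Probes were named through GEO's platform annotation. Of 45281 probes, 34885 had 1 symbol, 18 had several and 10378 were not listed. Genes needed a detection score over 0.95 on at least 5 liver arrays. The fit used group means, the animal from the study's sample list as a random block (correlation 0.186, statmod 1.5.0) and eBayes with trend and robust settings, and pooled tumors weighted the genotypes by number. The number of arrays limits the precision. The p-values set each difference against the spread between these samples, with the animal but not the chip in the model.

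The members and lists were chosen with earlier results of these data known. Text values follow a rule: all kept members are accounted for, and full values are given for called members, up to 6 each way in each list, and for the 2 members with the widest tumor range. Others singled out were chosen after their values were seen. Alternatives were the authors' log2 values, median scaling, no detection filter, the mean of probes, leaving out arrays, averaging tumors of an animal, chip as the block, Xist as a covariate, a replicate block and equal genotype weights. The scripts were tested on simulated data. Columns of 1 array without a label match (2 columns) were not used.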

Additional observations from a re-analysis of the deposited data

Results flagged for a closer look

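In each of the 32 members, the highest and the lowest of the 10 healthy livers and of the 8 p53 f/+ tumors were set against Dixon's critical value for a gap at the end of a group, 64 groups in all. Chance passes about 1 in 20 such groups, and members measured on the same array are not independent of each other. Healthy liver 1 was a low outlier in 26 of the members. In coagulation these were F2 at 9.11 (nearest 12.02), F5 at 7.25 (nearest 9.67), F7 at 6.64 (nearest 9.32), F9 at 9.72 (nearest 13.31), F10 at 9.40 (nearest 13.11), F11 at 5.45 (nearest 11.36), F12 at 8.96 (nearest 12.57), F13b at 8.31 (nearest 12.14), Fga at 13.42 (nearest 15.24), Fgg at 11.32 (nearest 12.26), Plg at 10.16 (nearest 13.54), Proc at 9.20 (nearest 12.54), Proz at 5.60 (nearest 10.85), Serpinc1 at 5.50 (nearest 8.88), Serpinf2 at 10.82 (nearest 13.55), Kng1 at 14.04 (nearest 15.42) and Klkb1 at 5.97 (nearest 11.31). In complement they were C4b at 11.46 (nearest 13.22), C8b at 6.92 (nearest 11.30), C8g at 9.88 (nearest 14.35), C9 at 9.43 (nearest 12.37), Hc at 6.43 (nearest 11.41), Cfb at 4.84 (nearest 7.76), Masp2 at 6.18 (nearest 12.17), Mbl1 at 6.43 (nearest 12.36) and Mbl2 at 5.50 (nearest 9.15).

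Liver tumor 13 was a low outlier among the p53 f/+ tumors in 22 members. In coagulation these were F2 at 10.73 (nearest 12.23), F5 at 8.81 (nearest 10.26), F7 at 6.68 (nearest 9.58), F10 at 12.03 (nearest 13.34), F12 at 9.95 (nearest 11.69), F13b at 9.10 (nearest 11.07), Fga at 14.05 (nearest 14.91), Plg at 9.68 (nearest 13.46), Proc at 10.35 (nearest 12.16), Proz at 6.73 (nearest 10.09), Serpinc1 at 6.43 (nearest 8.30), Serpind1 at 7.99 (nearest 11.15), Serpinf2 at 10.73 (nearest 13.68), Kng1 at 13.64 (nearest 15.40) and Klkb1 at 5.16 (nearest 10.07). In complement they were C8g at 11.01 (nearest 13.25), C9 at 8.54 (nearest 11.39), Hc at 8.19 (nearest 10.85), Cfb at 4.69 (nearest 7.03), Cfi at 11.05 (nearest 13.43), Masp2 at 8.16 (nearest 10.30) and Mbl1 at 8.43 (nearest 10.38). C4b was low in liver tumor 29 (11.84), and Masp1 was high in healthy liver 5 (12.40).

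Among the other genes of the pathways, Vwf, the von Willebrand factor that carries F8 and comes from endothelial cells, differed between the genotypes, with p53 f/f tumors at -2.15 relative to p53 f/+ tumors (limma adjusted p = 0.045). The 12 endothelial markers had means of 7.17 to 8.66 in p53 f/f and 8.25 to 9.68 in p53 f/+ tumors, and their part in this difference was not tested. The mean of 9.68 was that of liver tumor 13. Without that tumor, 4 genes were higher and 8 lower between the genotypes, against 16 and 39 with all arrays. The Vwf value of that fit is not given here.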

How the results depend on the processing

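The 29 genes followed singly kept their direction under every alternative computed, and what changed was the call. This does not hold for the members outside that set. Without healthy liver 1 the differences of F2, F5, F10, Proc, Serpinf2, Kng1, C9, Hc and Cfb turned from positive to negative. That of Hc, for example, went from 0.37 to -0.17. With the authors' deposited log2 values, 2 coagulation members (F11, Klkb1) and 4 complement members were lower, 0 complement members were higher, and 5 of the other pathway genes were higher. Median scaling, which moved the median of all genes to 0.23, left 1 other pathway gene lower and 0 members called in p53 f/+ tumors. No detection filter gave 0 complement members higher, 2 other pathway genes lower and 2 members called in p53 f/f tumors. Chip as the random block gave 0 complement members higher and 3 members called in p53 f/f tumors. Xist as a covariate gave 0 complement members higher, 1 other pathway gene lower and 3 members called in p53 f/f tumors. Equal weights for the genotypes gave 0 complement members higher and 2 other pathway genes lower. Over all genes, 1299 were higher and 1695 lower in tumors with the authors' values, and 2734 and 439 with median scaling. The counts were 1513 and 1625 with no detection filter, 1589 and 1508 with the Xist covariate, and 1514 and 1431 with equal weights. For p53 f/f tumors against healthy liver, 1542 and 1643 of 19057 genes were called with no detection filter. The numbers were 1526 and 1411 with chip as the block and 1598 and 1516 with the Xist covariate, of 11567 genes. In p53 f/+ tumors median scaling called 544 higher and 162 lower.

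Without healthy liver 1 the counts were 6 coagulation and 6 complement members lower, 0 complement members higher, 10 members called in p53 f/f and 9 in p53 f/+ tumors, and 1 between the genotypes. Leaving out liver tumor 13 as well, chosen after seeing the data, gave 6 coagulation and 6 complement members lower, 2 complement members higher, 8 other pathway genes lower, and 13 and 4 members called by genotype. Of 11567 genes, 2376 were higher and 2328 lower in p53 f/f tumors in that fit, and 1284 and 1006 in p53 f/+ tumors. Healthy liver 1 left out with Xist as a covariate, also chosen after seeing the data, gave 3 and 6 members lower, 0 complement members higher, 8 members called in p53 f/+ tumors and 1 between the genotypes. Of 11567 genes, 1492 were higher and 1255 lower in p53 f/+ tumors there, and 119 and 159 between the genotypes.

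Over 38 fits that left out 1 array each, the counts ranged from 0 to 6 coagulation members lower, 0 to 2 complement members higher, 2 to 6 complement members lower, 3 to 10 members called in p53 f/f tumors, 0 to 9 in p53 f/+ tumors, 0 to 1 between the genotypes and 1 to 6 other pathway genes lower. Besides healthy liver 1, leaving out tumor 14 called 1 coagulation member lower, and leaving out healthy liver 5, tumor 13 or tumor 29 called 2 complement members higher. Leaving out tumor 1, 6, 7, 9, 11, 18, 21, 25 or 26 or healthy liver 1, 3, 4, 6, 7, 8 or 9 called 0 complement members higher, so that the call of C2 was close to the threshold. Leaving out tumor 7 or healthy liver 3, 4, 6, 7, 8, 9 or 10 left 3 members called in p53 f/f tumors, leaving out tumor 13 left 0 in p53 f/+ tumors, and leaving out healthy liver 3, 6, 7 or 10 left 1 or 2 other pathway genes lower. Of those genes Tfpi lost its call in 22 of the 38 fits, F8 in 6 and Fcna in 3. Apart from these library effects the cause of a change was not tested.

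The title numbers of p53 f/f tumors and healthy livers do not come from the same animals, and in 1 of 10 same-numbered pairs the deviations correlated above 0.1 (range -0.08 to 0.16), so they were taken as names. With the number as a replicate block over the 20 samples, 3 members were called in p53 f/f tumors (C8b and Mbl2 lower, Cfb higher), which leaves 1 complement member higher and 2 lower. The share of all genes called in that fit is not given here, so the count cannot be read as many or few. Values near 15.78 limited the range of Fga and Kng1 upward, and values near 5.52 that of Mbl2, C6 and C8a downward.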

Other observations

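The chosen probes of 7 members (F10, Kng1, C2, C4b, C8b, C8g and Cfi) were detected on all 5 healthy thymus arrays. C2 had a median signal of 1160 there beside 4740 in healthy liver, and C4b 435 beside 9313, before normalization. The others were far lower, such as F10 at 60.1 beside 10400, C8b at 48.8 beside 3694 and Cfi at 49 beside 10980. F11 and Mbl2 were detected on 0 thymus arrays.

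In the animal that gave tumors 22 and 23, Xist was detected in tumor 22 (8.51) and not in tumor 23 (4.58), although both carry the same animal number in the study's sample list.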
